A study of Rattus norvegicus with 23 samples.

Results

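The comparison is between the left first mandibular molars of experimental and control rats at 43 days of age, and it takes 6 of the 23 arrays of the series. The arrays were chosen by their labels: 3 experimental animals (E4, E5 and E7) and 3 control animals (C4, C5 and C6), with 1 left molar each. Expression was described across 13624 genes, each represented by 1 probe set. All animals of both groups were male Wistar rats of a 4-week-old intake, and the labels name no genotype, transgene or drug for either group. The study's title concerns unopposed molars, meaning molars with no tooth to bite against. Left and right molars of these animals carry the same experimental label, with no word on the side of the missing opponent, so the left molar cannot be placed as the unopposed tooth or as its partner. Right molars of the same 6 animals and left molars of 5 animals of 31 days (E1, E3, C1, C2 and C3) were used to see where the left molars of 43 days differ.

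Periodontal ligament is the fibrous, cell-rich tissue that holds the tooth root in its bony socket and cushions chewing load. Its fibroblasts make and turn over collagen, and cementoblasts, osteoblasts and osteoclasts line its borders. A tooth that loses its opponent is known to erupt further, and its ligament to narrow and lose fibre order.

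The tissue was scraped from the roots after extraction, so cells of the neighbouring gum, bone and blood can be present. The ligament genes Postn and Aspn and the bone matrix genes Bglap and Ibsp lay at or above the 99th percentile of mean level over all genes, as did Col1a1, Ctsk (osteoclast), Krt13 and Krt14 (oral epithelium) and Dspp (dentin). Scx, a tendon and ligament transcription factor, lay at percentile 45.6. The T cell markers Cd3e and Cd3d, the ameloblast gene Amelx and the salivary genes Bpifa2 and Smgc lay below the filter on dim genes. Other enamel genes passed it: in the 6 left molars Ambn was at 8.7 to 11.3 and Amtn at 6.18 to 8.23. In bulk tissue, fewer cells of a type and less RNA per cell cannot be told apart. By the medians of the values as deposited, the 23 arrays fall into 11 arrays at 6.50 to 6.77 and 12 arrays at 6.01 to 6.18. Of the 6 arrays compared, C4 alone lies in the higher set. It also had the lowest mean level of the oral epithelium list, 9.26 against 10.84 and 11.40 in the other controls and 10.64 to 11.11 in the experimental animals. For most results that rest on C4 the value without it is therefore given as well.

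No gene differed between experimental and control left molars at an adjusted p under 0.05 in limma (0 of 13624, or 0%, with a smallest adjusted p of 1). All differences below are experimental minus control on the log2 scale, with the standard error (SE) of the fit, and unadjusted p-values are from the same limma fit. At an unadjusted p under 0.05 there were 231 genes, 1.70% of those tested, with 75 higher (0.550%) and 156 lower (1.15%) in experimental animals. Without C5 the number was 448, and without each other of the 6 arrays in turn it was 180 to 314. The share of 1.70% is below 0.05, the share that would come on average if no gene differed. The median difference over all genes was -0.04 after quantile normalization and -0.16 in the values as deposited. The median SE was 0.18. A difference over 1 in size was seen in 19 genes, 14 of them higher. The 3 experimental animals lay wholly above the 3 controls in 330 genes (2.42%) and wholly below them in 770 (5.65%). That split depended on the scaling: it was 51 above and 1410 below as deposited, and 506 above and 553 below with each array centred on its median. Among 8092 further probe sets with no listed gene symbol, 0 passed the adjusted threshold and 206 had an unadjusted p under 0.05. The 575 probe sets with several symbols were not tested.

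Genes of the circadian clock held a larger share of small p-values than the genes as a whole. Of the 18 clock genes tested, 9 had an unadjusted p under 0.05, against 1.70% of all genes. Of these 9, Per1, Dbp, Nr1d1, Tef, Per2 and Ciart were lower in experimental left molars, and Bmal1, Npas2 and Cry1 were higher. None passed the adjusted threshold. This list, like the others, was chosen with earlier results of these data known. Clock genes regulate each other, so the 18 are not independent, and the count is a description without a test. In most cells of the body the clock is a feedback loop. BMAL1, paired with CLOCK or NPAS2, switches on the Per, Cry, Nr1d1, Dbp, Tef and Ciart genes through E-box elements. PER and CRY proteins then block BMAL1, and NR1D1 (REV-ERB alpha) represses Bmal1, Npas2 and Cry1 through ROR elements. The transcripts of Bmal1 and Npas2 therefore peak at another time of day than those of Dbp, Nr1d1 and Per1. The hour at which each animal was killed is not given in the sources used here.

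The letters through which this loop is known to act can be seen in some of these genes' promoters. RefSeq windows (assembly GRCr8) were searched over the 250 bases before each start, on both strands, for an E-box (CACGTG), an E-box variant (CACGTT), a D-box (TTANGTAA) and the ROR element, whose letters stand in capitals in the Bmal1 stretch, with any base allowed at the last position but one. Of the 18 clock genes, 16 had a window. A gene with several starts, such as Nr1d1, has several windows. The counts of clock genes given next are therefore not on the same footing as the shares of windows. The E-box was in 5.59% of all 33469 windows and in those of 5 clock genes (Nr1d1, Tef, Ciart, Bhlhe40 and Bhlhe41). The ROR element was in 0.0359% of windows (12 in all), and Bmal1 was the 1 clock gene with it. The searched letters are those of the 2 Bmal1 sites, with the base at which these sites differ left open. A match in Bmal1 was therefore fixed beforehand, and the low share does not set Bmal1 apart. No looser form of the element was searched. The E-box variant was in 4.07% of windows and in those of 3 clock genes (Per2, Cry2 and Nr1d1). The D-box was in 2.04%, and Per2 was the 1 clock gene with it. A match describes these letters and is no evidence of binding. The stretches below, with the matched letters in capitals and 5′ to 3′ on the gene's strand, come from the genes that both hold a motif and had an unadjusted p under 0.05: Bmal1 with 2 ROR elements, Ciart with 3 E-boxes, Tef and Nr1d1 with an E-box, and Per2 with a D-box and an E-box variant. They do not stand for the list: Bhlhe40, Bhlhe41 and Cry2 hold an E-box or its variant without such a p, and the windows of Per1 and Dbp hold none of the 4 motifs. The Bmal1 stretch is at chr1:176766252-176766327 on the plus strand, Ciart at chr2:186112247-186112359 on the minus strand, Tef at chr7:115206609-115206654 on the plus strand, Nr1d1 at chr10:84229620-84229665 on the minus strand, and Per2 at chr9:99497030-99497205 on the minus strand.
Bmal1: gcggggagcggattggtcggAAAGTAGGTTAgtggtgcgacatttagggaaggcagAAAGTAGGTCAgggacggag
Ciart: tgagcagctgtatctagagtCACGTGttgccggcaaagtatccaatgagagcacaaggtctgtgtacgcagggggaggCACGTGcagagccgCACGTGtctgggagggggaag
Tef: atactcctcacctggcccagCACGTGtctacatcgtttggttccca
Nr1d1: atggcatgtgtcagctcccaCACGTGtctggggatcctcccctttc
Per2: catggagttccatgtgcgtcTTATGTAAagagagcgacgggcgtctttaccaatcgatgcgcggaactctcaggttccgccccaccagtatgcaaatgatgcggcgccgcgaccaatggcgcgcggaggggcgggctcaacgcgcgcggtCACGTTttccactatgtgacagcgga

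Among the repressors, Per1 showed the largest difference of the clock list. Its level was 7.43 in E4, 7.51 in E5 and 7.64 in E7, against 9.34 in C4, 8.32 in C5 and 8.38 in C6. The groups did not overlap, and C4 stood highest. The difference was -1.15 (SE 0.50, unadjusted p = 0.0332), and it was -0.92 without C4. Per2, the partner of Per1 in the repressor complex, was at 7.29, 7.22 and 7.13 in E4, E5 and E7 and at 7.38, 7.69 and 7.98 in C4, C5 and C6. Again the groups did not overlap, here with C4 the nearest control (-0.47, SE 0.20, unadjusted p = 0.029). Ciart encodes a further repressor of BMAL1. It was dim, at 5.80, 5.54 and 5.55 in the experimental animals and 5.93, 6.25 and 5.86 in the controls, without overlap (-0.39, SE 0.13, unadjusted p = 0.00756). Without C5 the difference was -0.25. Nr1d1 was at 8.88, 9.89 and 8.35 against 9.44, 9.82 and 9.93. E5 lay among the controls, and the difference was -0.69 (SE 0.31, unadjusted p = 0.0392), with -0.39 without E7 and -1.03 without E5. Per3 differed by -0.22 (SE 0.17, unadjusted p = 0.211).

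Dbp and Tef encode transcription factors that carry the clock's rhythm to other genes through D-boxes. Dbp was at 7.65 in E4, 8.20 in E5 and 7.83 in E7, against 8.89 in C4, 8.45 in C5 and 8.64 in C6 (-0.77, SE 0.25, unadjusted p = 0.00569). Tef was at 7.06, 7.16 and 6.81 against 7.35, 7.77 and 7.90 (-0.66, SE 0.21, unadjusted p = 0.0057). Neither gene's groups overlapped. Nfil3, the repressor that competes with them at D-boxes, differed by 0.09 (SE 0.14, unadjusted p = 0.524).

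On the activating side, Bmal1 was at 9.28, 8.99 and 9.17 in E4, E5 and E7 and at 8.67, 8.84 and 8.78 in C4, C5 and C6. Every experimental animal lay above every control (0.38, SE 0.14, unadjusted p = 0.0149). Npas2 was at 10.16, 10.54 and 9.70 against 9.87, 9.48 and 9.69, with E7 inside the control range (0.46, SE 0.20, unadjusted p = 0.0344). Without E5 the difference was 0.25. Cry1, a repressor whose transcript peaks late in the cycle, was at 7.99, 7.62 and 7.86 against 7.49, 7.45 and 7.53, without overlap (0.34, SE 0.13, unadjusted p = 0.0172). Clock itself differed by 0.12 (SE 0.25) and Cry2 by 0.15 (SE 0.17); both signs, and that of Nfil3, turned in the values as deposited. There the differences of Bmal1, Npas2 and Cry1 were 0.21, 0.30 and 0.20, and those of Per1, Dbp and Tef were -1.32, -0.95 and -0.81.

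**Figure D1:**
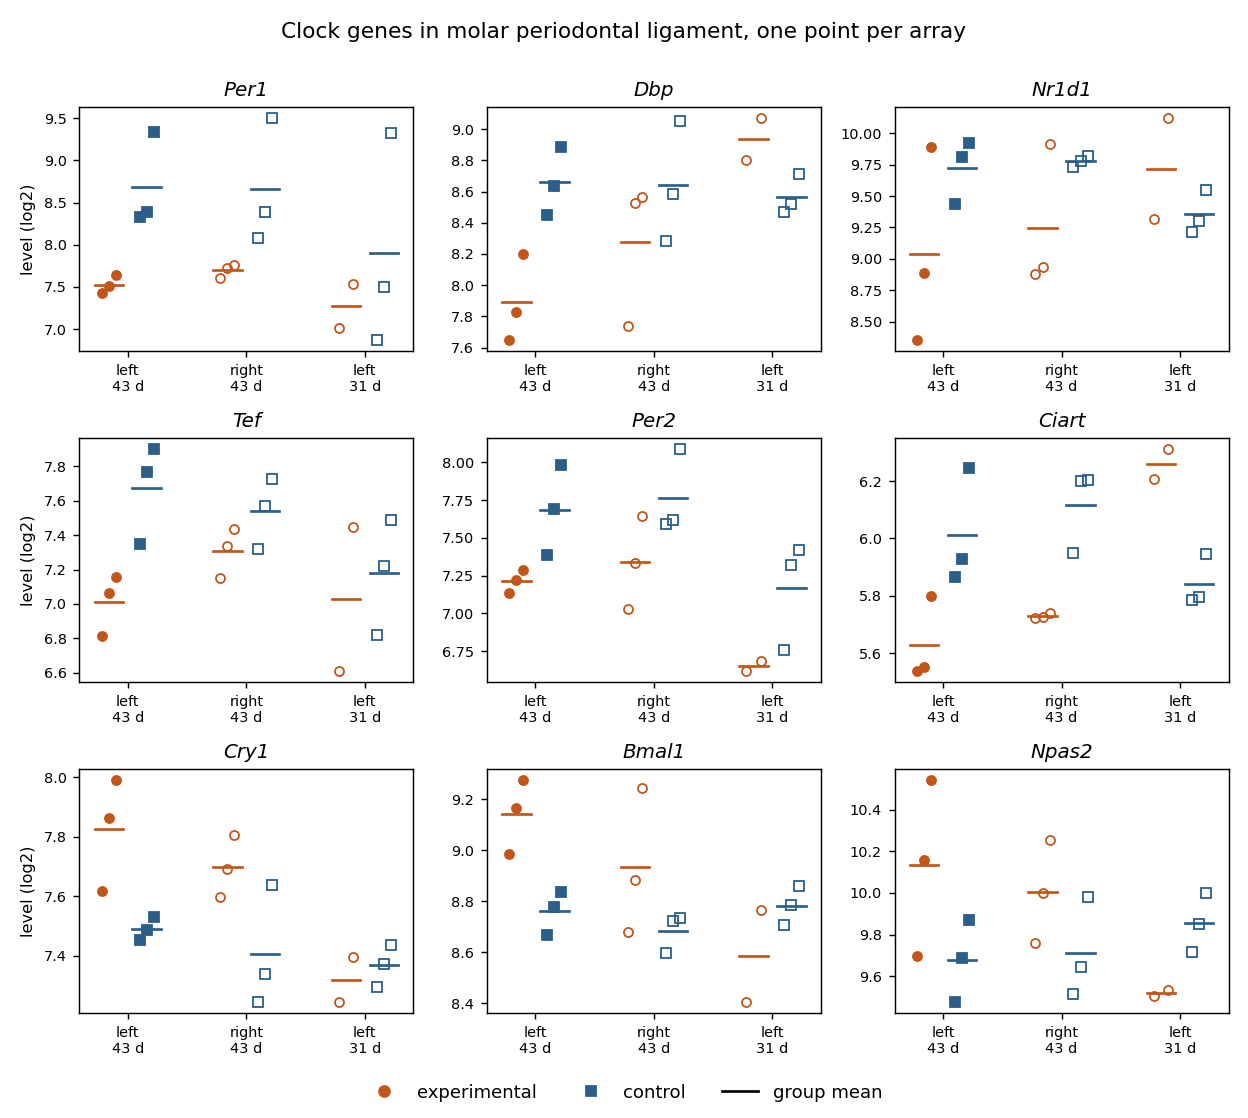
Level (log2, vertical axis) of the 9 clock genes with an unadjusted p under 0.05, 1 point per array, for left molars of 43 days (filled), right molars of 43 days and left molars of 31 days (open), with the group means as lines. In the left molars of 43 days Per1 lies at 7.43 to 7.64 in experimental and 8.32 to 9.34 in control animals, while Bmal1 lies at 8.99 to 9.28 and 8.67 to 8.84.

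Over the 18 clock genes 9 were higher and 9 lower, where 59.4% of all genes were lower. In the values as deposited 15 were lower (83.2% of all genes), and with median centring 12 (75.3%). After quantile normalization there were 2 wholly above the controls (against 2.42% of all genes) and 5 wholly below (against 5.65%). The count of 9 genes at an unadjusted p under 0.05 was 3 without E4 (1.32% of all genes) and 5 without C5 (3.29%). Without each of the other arrays it was 6 to 8 (1.41% to 2.3% of all genes). It was 8 with the set of arrays as a term (1.24% of all genes) and 7 in the values as deposited (1.31%). In the right molars of the same animals 4 of the 18 had an unadjusted p under 0.05, against 4.73% of all genes. There Ciart differed by -0.39 (SE 0.13, unadjusted p = 0.00701), Per2 by -0.43 (SE 0.20, unadjusted p = 0.0446), Per3 by -0.41 (SE 0.17, unadjusted p = 0.0236) and Cry1 by 0.29 (SE 0.13, unadjusted p = 0.0351). Per1 in the right molars was at 7.60, 7.73 and 7.76 against 9.50, 8.08 and 8.39 (-0.96, SE 0.50, unadjusted p = 0.0713). The left and right molars come from the same animals and are no independent samples of them. The contrast in left molars minus the contrast in right molars had an unadjusted p under 0.05 in 0 of the 18, against 3.25% of all genes.

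At 31 days some of the clock genes took other values. In left molars of that age 2 of the 18 had an unadjusted p under 0.05, against 14.0% of all genes. Ciart was higher in the experimental animals there, at 6.31 in E1 and 6.21 in E3 against 5.79 in C1, 5.95 in C2 and 5.80 in C3 (0.42, SE 0.14, unadjusted p = 0.0082). Per2 was lower, by -0.49 (SE 0.22, unadjusted p = 0.0406). Per1 and Tef were lower at that age too, by -0.635 (SE 0.56, unadjusted p = 0.268) and -0.16 (SE 0.24, unadjusted p = 0.505). Dbp differed by 0.35 (SE 0.27) and Bmal1 by -0.21 (SE 0.16), each opposite in sign to 43 days. The Per1 contrast of ages was -0.52 (SE 0.75, unadjusted p = 0.497). The difference between the contrasts, 43 minus 31 days, had an unadjusted p under 0.05 in 5 of the 18 clock genes, against 5.29% of all genes. These were Ciart (-0.81, SE 0.19, unadjusted p = 0.000511, adjusted p = 0.91), Dbp (-1.12, SE 0.37, unadjusted p = 0.00666), Nr1d1 (-1.02, SE 0.46, unadjusted p = 0.0403), Bmal1 (0.59, SE 0.21, unadjusted p = 0.0118) and Npas2 (0.81, SE 0.30, unadjusted p = 0.0142). The experimental arrays of 31 days are all in the higher set, whereas E4, E5 and E7 are in the lower one, so set and age cannot be told apart in the experimental animals. Per1 varied between control animals at 31 days as well: it was 9.33 in C3 but 6.87 in C1 and 7.50 in C2.

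In the list of genes known to respond to glucocorticoid hormone or cell stress, none passed the adjusted threshold. All 16 tested members of that list had a mean at or below that of the controls, and the median difference was -0.37 against -0.04 over all genes. Of these, 5 had an unadjusted p under 0.05, against 1.70% of all genes, and 4 lay wholly below the controls, against 5.65%. Per1 belongs to this list too, since glucocorticoids induce it directly. The mean level of the list was 8.39, 8.46 and 8.39 in E4, E5 and E7 and 8.999, 8.61 and 8.70 in C4, C5 and C6, so C4 stood apart and all controls lay above all experimental animals. Without C4 the median was -0.23, 14 members were lower and 1 had an unadjusted p under 0.05 (1.72% of all genes). That last count was 1 without E4 (1.32%) and 5 without C5 (3.29%). It was 2 without E5, E7 or C6 (2.3%, 1.41% and 1.63% of all genes). With the set of arrays as a term it was 2 (1.24%), with 13 members lower and a median of -0.24.

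Fkbp5 encodes a chaperone that restrains the glucocorticoid receptor and is induced by it. It was at 6.83, 7.06 and 6.89 in E4, E5 and E7 and at 8.12, 7.10 and 7.70 in C4, C5 and C6. The groups did not overlap, but C5 lay next to E5 (-0.71, SE 0.31, unadjusted p = 0.033). Ddit4, a brake on mTORC1 signalling, was at 8.36, 8.39 and 8.85 against 9.64, 8.75 and 9.01, with E7 above C5 (-0.60, SE 0.23, unadjusted p = 0.0178). Klf9, a transcription factor induced by the receptor, was at 8.72, 8.96 and 8.84 against 9.74, 8.97 and 9.32. E5 and C5 were nearly equal, and C4 was the highest (-0.50, SE 0.24, unadjusted p = 0.0475). Tsc22d3 (GILZ), an anti-inflammatory mediator of the hormone, was at 7.23, 7.29 and 7.30 against 8.31, 7.47 and 7.52 (-0.49, SE 0.26, unadjusted p = 0.0734). Without C4 the differences were -0.52 for Fkbp5, -0.38 for Ddit4, -0.34 for Klf9 and -0.28 for Tsc22d3.

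Zbtb16, a transcription factor and another direct target of the receptor, had the opposite order among the controls. It was at 5.88, 5.81 and 5.71 in E4, E5 and E7 and at 5.72, 6.45 and 6.48 in C4, C5 and C6, so that C4 lay with the experimental animals (-0.42, SE 0.16, unadjusted p = 0.0203). Without C4 the difference was -0.66. In right molars its difference was 0.14, and the left minus right contrast was -0.56 (SE 0.20, unadjusted p = 0.0121). The receptor gene Nr3c1 differed by -0.11 (SE 0.13, unadjusted p = 0.433). In the right molars 13 of the 16 list members were lower with a median of -0.28, and 0 had an unadjusted p under 0.05. Over all genes there, 5896 of 13624 were lower, the median was 0.03 and 4.73% had such a p. In left molars of 31 days the median of the list was -0.34, and 12 members were lower. Of all genes 9325 of 13624 were lower at that age, with a median of -0.13.

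**Figure D2:**
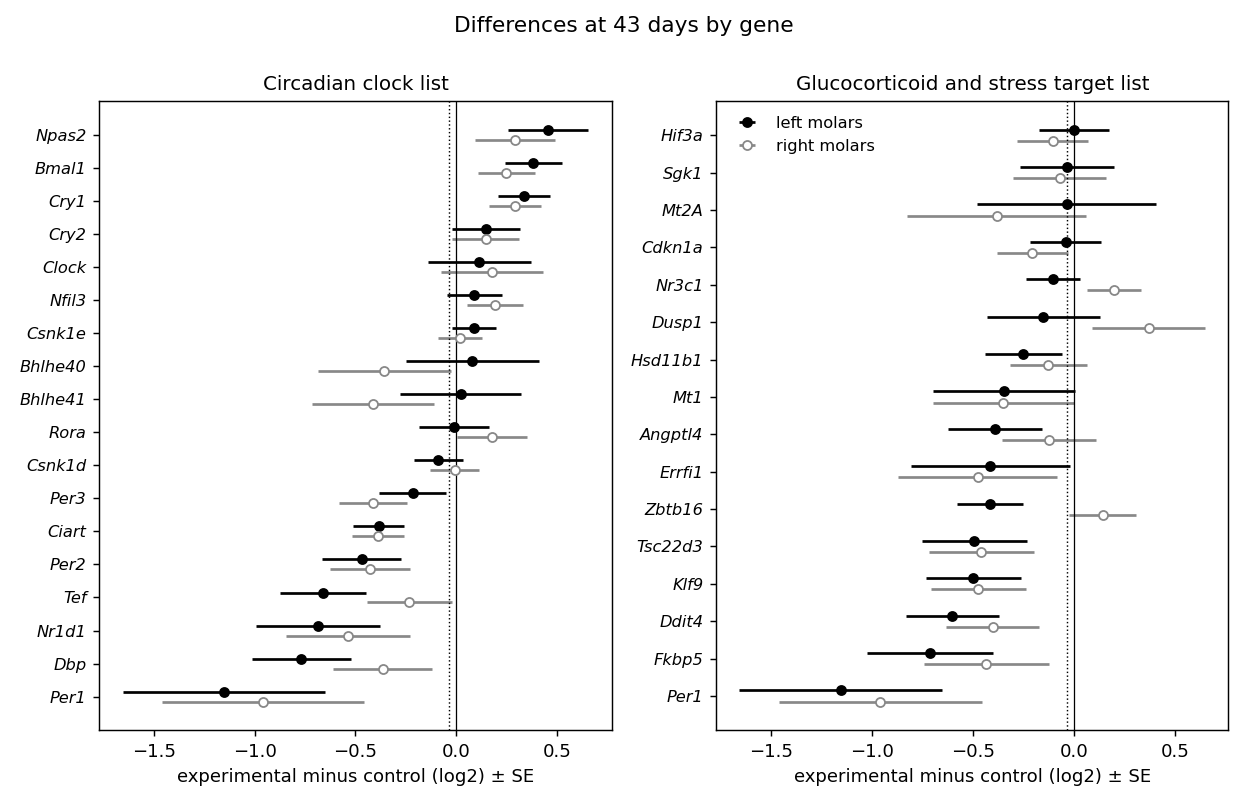
Difference between experimental and control animals at 43 days (log2, horizontal axis, bars are ± 1 SE of the fit) for the tested genes of the clock list and the glucocorticoid and stress target list, in left (filled) and right (open) molars; the dotted line is the median of all genes in left molars. Left and right differences of Per1 are -1.15 and -0.96, and those of Zbtb16 are -0.42 and 0.14.

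No gene of the growth factor pathways passed the adjusted threshold. Wnt ligands bind Frizzled and LRP receptors and drive bone and cementum formation, among other roles. Of 37 tested members 30 were lower and 7 higher in experimental left molars, with a median of -0.19 against -0.04 over all genes, of which 59.4% were lower. In the values as deposited all 37 were lower, as were 83.2% of all genes. The mean level of the list was at most 8.18 (E5) and at least 7.99 (E7) in the experimental animals, against 8.53 in C4, 7.97 in C5 and 8.25 in C6, so the controls held both the highest and the lowest value. An unadjusted p under 0.05 was seen in 3 members, against 1.70% of all genes, and all 3 were ligands. Wnt11 was at 7.45, 7.39 and 7.46 in E4, E5 and E7 and at 7.99, 7.82 and 7.80 in C4, C5 and C6, without overlap (-0.44, SE 0.20, unadjusted p = 0.0446). Wnt9a was at 7.27, 7.08 and 7.06 against 7.998, 7.26 and 7.38, with E4 above C5 (-0.41, SE 0.18, unadjusted p = 0.0314), and the difference was -0.22 without C4. Wnt3a differed by -0.31 (SE 0.12, unadjusted p = 0.0183), with the lowest control, C6, inside the experimental range. Wholly below the controls were 7 members, against 5.65% of all genes. They include the ligand Wnt5a (-0.35, SE 0.18, unadjusted p = 0.0743; -0.23 without C4), the coreceptor Lrp6 (-0.19, SE 0.11) and the secreted inhibitor Frzb (-0.29, SE 0.15). Without C4 the median was -0.13, 26 of 37 were lower and 0 had an unadjusted p under 0.05 (1.72% of all genes). The number was 7 without C5 (3.29% of all genes) and 1 without E7 (1.41%). It was 2 or 3 without each of the others (1.32% to 2.3%). With the set of arrays as a term it was 1 (1.24%), and the median was -0.08. In the left minus right contrast 2 of the 37 had an unadjusted p under 0.05, against 3.25% of all genes.

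The lists of TGF-beta and BMP signalling (31 genes) and of IGF, FGF and PDGF signalling (26 genes) had medians of -0.17 each, with 8 and 6 members higher, and 0 members of either had an unadjusted p under 0.05, against 1.70% of all genes. Without C4 these medians were -0.05 and -0.02, and with the set of arrays as a term -0.09 and -0.06. Bmp7, a bone and tooth morphogen, was at 9.86, 9.84 and 9.84 in E4, E5 and E7 and at 10.31, 10.18 and 10.47 in C4, C5 and C6. The experimental values were within 0.02 of each other and below all controls (-0.48, SE 0.25, unadjusted p = 0.0716). Smad7, the inhibitory SMAD, lay wholly above the controls at 7.92, 8.07 and 7.98 against 7.85, 7.72 and 7.86, by 0.18 (SE 0.13). Of 18 YAP and stretch response genes 8 were higher (median -0.01). Trpv4, a stretch-gated calcium channel, was at 7.27, 7.48 and 6.66 against 8.15, 7.41 and 7.55, with E5 above C5 (-0.56, SE 0.24, unadjusted p = 0.0287), and the difference was -0.35 without E7. Tead1, the DNA-binding partner of YAP, lay wholly below the controls (-0.31, SE 0.20).

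The median differences of 4 matrix and bone lists turned their sign without C4. The 29 collagen and collagen processing genes had a mean level of 9.66, 10.25 and 9.79 in E4, E5 and E7 and of 10.68, 9.25 and 9.95 in C4, C5 and C6. C4 was thus the highest array and C5 the lowest. The median difference was -0.05 with C4, with 11 genes higher, and 0.23 without it, with 3 lower. The same turn of sign was seen in ligament and tendon fibroblast genes (-0.08, and 0.14 without C4), matrix proteases and inhibitors (-0.04 and 0.14) and osteoblast, osteocyte and cementoblast genes (-0.12 and 0.15). Over these 4 lists 0 genes had an unadjusted p under 0.05, against 1.70% of all genes. Panx3, a channel of bone-forming cells, was at 6.73, 7.74 and 6.60 against 8.47, 7.10 and 7.39 (-0.63, SE 0.41; -0.28 without C4), with E5 above C5 and C6. Mepe, a phosphoprotein of osteocytes, was dim and lay wholly below the controls at 5.88, 5.89 and 5.97 against 6.12, 6.09 and 6.03 (-0.17, SE 0.13). At 31 days the collagen list lay lower in experimental left molars, with 29 of 29 members lower and a median of -0.66. Over all genes 9325 of 13624 were lower there, with a median of -0.13. There 5 of the 29 had an unadjusted p under 0.05, against 14.0% of all genes. In the same arrays the oral epithelium list had 26 of 26 members higher (median 1.17) and the endothelium list 20 of 20 lower (median -0.81), and their part in the collagen values was not tested.

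**Figure D3:**
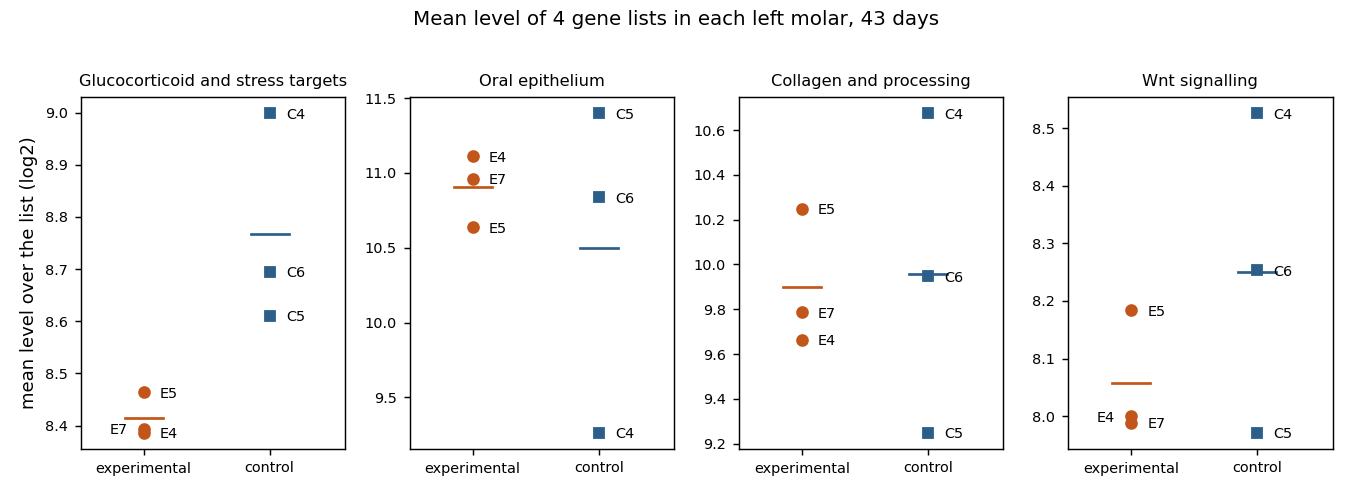
Mean level (log2, vertical axis) of the tested genes of 4 lists in each left molar of 43 days, 1 point per animal with its name, lines are group means. C4 is highest in the glucocorticoid, collagen and Wnt lists (8.999, 10.68 and 8.53) and lowest in the oral epithelium list (9.26), and the groups do not overlap in the glucocorticoid list alone.

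Oral epithelium genes were higher in 25 of 26 members, with a median of 0.30, but 0 had an unadjusted p under 0.05, against 1.70% of all genes. Without C4 the median was -0.18 and 23 were lower. In the values as deposited 6 of 26 were lower. Krt24, a keratin of differentiated epithelium, was at 11.70, 11.23 and 11.56 against 5.94 in C4, 12.25 in C5 and 11.68 in C6, and had the largest difference of all named genes (1.54, SE 1.98). Krt10 showed the same pattern, at 12.03, 12.07 and 12.53 against 7.60, 12.87 and 12.17. Without C4 the differences were -0.47 for Krt24 and -0.26 for Krt10. Spink7, an inhibitor of epithelial proteases, was at 6.92, 7.30 and 6.57 against 5.16, 6.15 and 5.504, without overlap (1.33, SE 0.52, unadjusted p = 0.0206). Without C4 the Spink7 difference was 1.005. With the epithelial level as a covariate, 9 clock genes and 5 glucocorticoid and stress genes had an unadjusted p under 0.05, against 2.74% of all genes in that fit.

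Blood and immune lists had small median differences between the left molars. The median differences were 0.12 for granulocytes (15 of 23 genes higher), 0.17 for B and plasma cells (11 of 14), 0.11 for macrophages and monocytes (13 of 23) and -0.05 for erythroid cells (8 of 19 higher). In the right molars of the same animals these medians were 0.73, 1.01, 0.13 and 0.73. T and NK cell genes were higher in 8 of 11 (median 0.07, and 0.56 in right molars). Of these 11 genes, 3 lay wholly above the controls in left molars, against 2.42% of all genes. So did 2 granulocyte genes, 1 B and plasma cell gene and 1 erythroid gene, while 1 macrophage and monocyte gene lay wholly below. The megakaryocyte and platelet list had 10 of 11 genes higher in left molars (median 0.24, and 0.09 without C4). Mast cell genes were lower in 6 of 7 (median -0.20, and -0.14 without C4), among them Cpa3, the mast cell carboxypeptidase (-0.72, SE 0.36, unadjusted p = 0.0597), which C4 led at 7.07 against 5.38 to 6.32 in the other arrays (-0.42 without C4). Endothelial genes were higher in 14 of 20 (median 0.11), smooth muscle and pericyte genes in 1 of 13 (median -0.11, and -0.02 without C4) and skeletal muscle genes in 13 of 14 (median 0.14). None of these lists held a gene at an unadjusted p under 0.05, against 1.70% of all genes.

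Of 28 cytokine, chemokine and adhesion genes 17 were higher (median 0.05, and -0.05 without C4), 5 of them wholly above the controls, against 2.42% of all genes. Ccl2, which attracts monocytes, was at 8.84, 8.83 and 9.11 in E4, E5 and E7 and at 7.93, 8.15 and 8.47 in C4, C5 and C6. The gap between the groups was wide and the difference was 0.74 (SE 0.29, unadjusted p = 0.0183). It was 0.26 in right molars (left minus right 0.48, SE 0.35, unadjusted p = 0.184). In left molars of 31 days it was 0.42 (SE 0.32, unadjusted p = 0.206). Without C4 the Ccl2 difference in left molars of 43 days was 0.63. In that fit 0 of the 28 genes had an unadjusted p under 0.05 (1.72% of all genes). Sele and Selp, the selectins of activated endothelium, also lay wholly above the controls, by 0.39 (SE 0.21) and 0.53 (SE 0.35). In contrast Cxcl2, which attracts neutrophils, was at 7.34, 7.23 and 8.24 against 8.03, 8.83 and 9.01 (-1.02, SE 0.56, unadjusted p = 0.0856). E7 lay inside the control range. In right molars Cxcl2 differed by 0.01, and its left minus right contrast was -1.025 (SE 0.68, unadjusted p = 0.15). In left molars of 31 days it differed by 0.63 (SE 0.62, unadjusted p = 0.322).

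**Figure D4:**
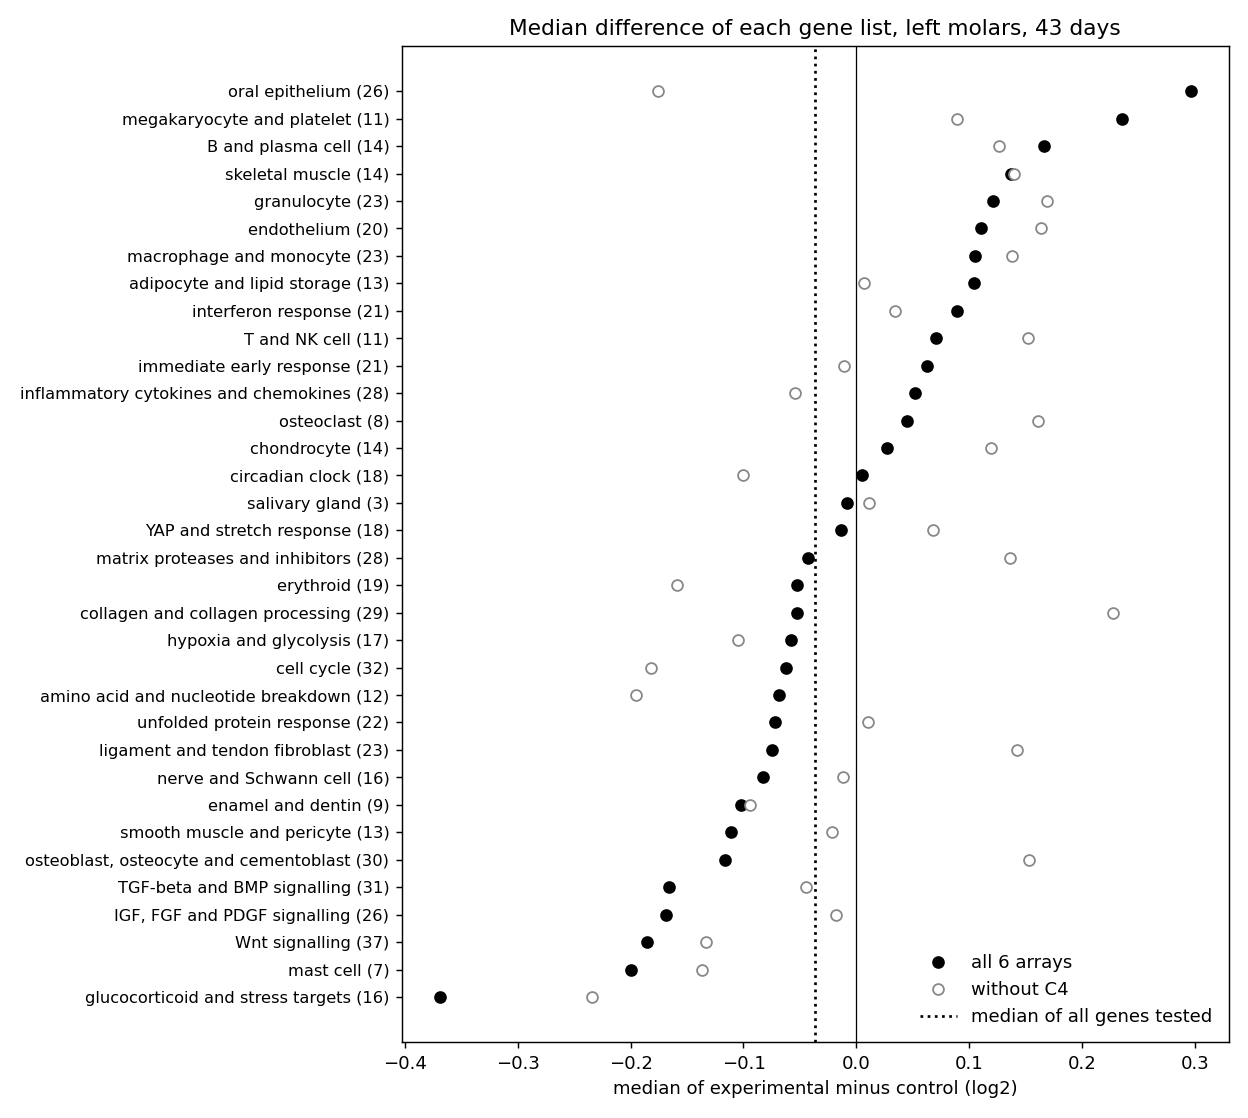
Median difference between experimental and control left molars at 43 days (log2, horizontal axis) of each of the 34 gene lists, with the number of genes tested in brackets, over all 6 arrays (filled) and without C4 (open). The glucocorticoid and stress list lies lowest at -0.37, and the oral epithelium list highest at 0.30 with C4 and at -0.18 without it.

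Of 12 tested genes of amino acid and nucleotide breakdown, 2 had an unadjusted p under 0.05 (against 1.70% of all genes) and 3 lay wholly below the controls (against 5.65%). No test of the list was made. Dpyd, which opens the breakdown of uracil and thymine, was at 5.79, 6.17 and 5.40 in E4, E5 and E7 and at 6.63, 6.49 and 6.55 in C4, C5 and C6. Its level is near the filter on dim genes (5.81), and the groups did not overlap (-0.77, SE 0.22, unadjusted p = 0.0025). The difference was -0.52 in right molars (SE 0.22, unadjusted p = 0.0285) and 0.61 in left molars of 31 days (SE 0.24, unadjusted p = 0.0219), and the contrast of ages was -1.38 (SE 0.33, unadjusted p = 0.000519). Cdo1, which oxidises cysteine on the way to taurine, was at 9.49, 10.17 and 9.38 against 10.22, 10.76 and 10.53, again without overlap (-0.83, SE 0.31, unadjusted p = 0.0159). In right molars it differed by -0.91 (SE 0.31, unadjusted p = 0.00871). Csad, the next enzyme towards taurine, lay wholly below the controls by a smaller step (-0.32, SE 0.16, unadjusted p = 0.0568). Over the list 8 genes were lower, with a median of -0.07.

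Of single genes, those with the smallest p-values had modest differences. Or10am5, an olfactory receptor gene, had the smallest (unadjusted p = 0.000153): it was at 6.74, 6.58 and 6.81 against 6.03, 5.85 and 6.19 (0.68, SE 0.14), with 0.02 in right molars and -0.60 in left molars of 31 days. Among genes that were lower, Ggact, an enzyme that breaks down crosslinked amino acids, was at 5.95, 6.19 and 5.85 against 6.40, 6.58 and 6.49 (-0.50, SE 0.13, unadjusted p = 0.00108). Ascl3, a transcription factor of gland duct cells, was at 6.24, 6.34 and 6.64 against 7.21, 7.51 and 6.96 (-0.82, SE 0.22, unadjusted p = 0.00129). All 3 genes' groups were fully apart. Myo7a, an unconventional myosin, was at 6.32, 6.17 and 6.16 against 7.10, 6.57 and 6.73 (-0.58, SE 0.17, unadjusted p = 0.00258; -0.45 without C4). Ruvbl1, an ATPase of chromatin remodelling complexes, was at 6.96, 6.93 and 6.37 against 7.49, 7.40 and 7.27 (-0.63, SE 0.17, unadjusted p = 0.0013), while in right molars it differed by -0.04.

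Further genes with a wide gap, a large difference or a small p are given next. Tfpi, the inhibitor that starts the brake on clotting, was at 7.05, 7.04 and 7.03 in the experimental animals and 7.65, 7.41 and 7.51 in the controls (-0.48, SE 0.18, unadjusted p = 0.0139). It was lower in right molars (-0.40, unadjusted p = 0.0366) and in left molars of 31 days (-0.95, unadjusted p = 0.000119) as well. The complement gene C3 (not the animal of that name) was at 9.63, 9.34 and 9.64 against 10.33, 9.98 and 10.25 (-0.65, SE 0.35, unadjusted p = 0.0769). Sult1a1, a phenol sulfotransferase, was at 6.55, 6.64 and 6.33 against 7.18, 7.11 and 7.75 (-0.84, SE 0.31, unadjusted p = 0.0153). Tmem100, a membrane protein of BMP-responsive endothelium, was at 6.35, 6.97 and 7.08 against 8.03, 7.05 and 8.46, with E7 just above C5 (-1.04, SE 0.36, unadjusted p = 0.01). It was also lower in right molars (-0.78, unadjusted p = 0.0445) and at 31 days (-1.13, unadjusted p = 0.0118). On the higher side, Krtap1-5, a keratin-associated protein of hair, was at 6.999, 6.69 and 7.09 against 6.15, 6.16 and 6.25 (0.74, SE 0.24, unadjusted p = 0.0053). Vgf, a neuropeptide precursor, was at 6.14, 6.10 and 6.44 against 5.72, 5.75 and 5.84 (0.46, SE 0.15, unadjusted p = 0.00778). Neither gene's groups overlapped.

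Whether the left molars differed from the right ones in this contrast was tested directly. In limma 0 genes passed the adjusted threshold, with 443 (3.25%) at an unadjusted p under 0.05. Cav1, the coat protein of caveolae, differed by 0.28 in left molars (SE 0.20) and by -0.66 in right molars (left minus right 0.94, SE 0.24, unadjusted p = 0.00109). In left molars it was at 10.78, 11.07 and 10.76 in E4, E5 and E7 and at 10.83, 10.47 and 10.46 in C4, C5 and C6, with C4 inside the experimental range. Enox2, a surface oxidase, had the smallest p of this contrast (-0.77, SE 0.16, unadjusted p = 0.000145). Its left difference was -0.13 and its right one 0.64. Themis2, a signalling adaptor of myeloid and B cells, differed by -0.25 on the left and 0.98 on the right (-1.23, SE 0.28, unadjusted p = 0.000395). The blood and immune medians given above were also larger in right molars, a difference for which no test of the lists was made.

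The contrast of ages in left molars likewise had 0 genes past the adjusted threshold in limma, with 721 (5.29%) at an unadjusted p under 0.05. Or10am5 had the smallest p there, at 1.1e-05 (adjusted p = 0.156, difference 1.28, SE 0.22), and Ciart and Dpyd were among the smallest on the lower side. The experimental group of 31 days has 2 left molars only, and its arrays lie in the higher set. At that age 1907 genes (14.0%) had an unadjusted p under 0.05 in left molars and 0 passed the adjusted threshold, against 231 and 0 at 43 days and 644 (4.73%) and 0 in right molars of 43 days.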

How the data were processed

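The deposited table holds log2 values for 36685 probe sets on 23 arrays, made by the authors; the submitters' processing notes name Partek and RMA. Versions and settings are not given in the sources used here. Per the labels' protocols, 200 ng of total RNA was labelled for each Affymetrix array. The platform table lists 1 symbol for 18511 probe sets, several for 575 and none for 17599. Entrez identifiers of 18394 matched RefSeq (GRCr8), which changed 0 symbols. Arrays give no read depth, so their number limits the precision.

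Values were quantile normalized between arrays. The brightest probe set represented each of 18166 genes, and 13624 genes at or above the 25th percentile of mean level (5.81) were kept. Means of 8 groups (condition, side, age) were fitted to all 23 arrays with limma 3.58.1 and statmod 1.5.0 in R 4.3.3. The animal, taken from the numeral in the titles, was a random block (correlation 0.258). P-values were adjusted by Benjamini-Hochberg with 0.05 as threshold. The labels give no litter, cage or hour, so p-values measure only the spread between animals. That spread was estimated over all 23 arrays within their 8 groups, not over the 6 compared arrays alone. The script was tested on simulated data with 200 changed genes.

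The comparison, the gene lists and the alternatives were chosen with earlier results of these data known, and the list counts are descriptions without a test. Up to 12 genes per direction with the smallest p, 8 with the largest difference, 8 with the widest gap between groups, 4 per list and 4 per direction for the side and age contrasts could be named, together with members of the clock, glucocorticoid, Wnt and TGF-beta lists. Symbols of placeholder loci, microRNAs and ribosomal RNAs were passed over. The promoter windows and 2 alternatives (both arrays of C4 left out, and gene-by-gene array weights) were added with the data in view.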

Additional observations from a re-analysis of the deposited data

How the results depend on the processing

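Of 22 other settings, 21 gave 0 genes past the adjusted threshold for left molars. In those 21, 85 to 1677 genes had an unadjusted p under 0.05, the 85 among 9083 genes at or above the median level. The exception, with 1066 genes past the threshold and 3337 unadjusted, was array weights. Their estimation did not converge and gave C6 a weight of 16.6 against 0.398 for C4 and 0.450 for C5, while weights estimated gene by gene gave 0 genes (1677 unadjusted; smallest adjusted p 0.0826). Leaving out each of the 6 left molars of 43 days in turn gave 0 genes in the left, side and age contrasts (no right molar and no molar of 31 days was left out alone), and 180 to 448 unadjusted in the first. Genes wholly above the controls numbered 51 as deposited, 506 with median centring and 561 without the filter, and genes wholly below numbered 1410 as deposited. With the replicate block 0 genes passed the threshold and 323 had an unadjusted p under 0.05. With that block 5 of 18 clock genes had such a p, against 2.37% of all genes. At 43 days experimental and control animals share only the numbers 4 and 5, whose deviations in left molars correlated at -0.41 and -0.54. Over all pairings of these animals the correlations ran from -0.54 to 0.52. Deviations from a mean of 3 arrays sum to 0, so these values cannot tell whether animals of the same number were paired. A sign change was seen in 6 of 56 genes: as deposited Clock was at -0.037, Cry2 at -0.011 and Nfil3 at -0.054; with median centring Nfil3 was at -0.002; with the replicate block Nfil3 was at -0.068 and Themis2 at 0.048. Leaving out 1 array gave -0.076 (without C4) to 0.301 (without C5) for Clock, -0.473 to 2.83 for Krt24 and -0.262 to 2.33 for Krt10 by the same arrays, and without both arrays of C4 they were at -0.095, -0.466 and -0.312. The difference moved by over 1.5 times without 1 of the 6 arrays in 19 of the 56 genes. The cause of these changes was not tested. With 3 animals a group, the median SE of 0.18 limits what can be seen.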
